A study of Mus musculus with 24 samples.

Results

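The comparison described here is mutant against control in the proximal mandible of mouse embryos at embryonic day 13.5. Differences are between the 6 proximal mandible arrays, 3 per genotype, chosen by their titles from the 24 arrays in the series. The spread behind each SE and p-value was estimated from all 24 arrays. Every gene that passed a filter on low values, also applied over all 24 arrays, was covered. Embryos came from a cross of Wnt1cre;Tgfbr2fl/+ with Tgfbr2fl/fl mice, and the strain is labelled C57B6. Mutants, labelled Tgfbr2_Knockout, were picked by a cleft palate and a calvarial defect, and littermates served as controls. By this cross every embryo, control or mutant, inherits a floxed Tgfbr2 allele, and the Cre status of the controls is not given. The lower jaw was cut into a distal end, towards the chin, and a proximal end, towards the jaw joint, and the proximal piece was profiled on Affymetrix arrays. Values are log2 expression, so a difference of 1 is a doubling. The labels do not say whether replicates came from separate embryos or pools. The p-values measure only the spread between replicate arrays, shared over all jaw pieces.

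TGF-beta ligands bind the type II receptor, TGFBR2, which activates the type I receptor and through it the transcription factors SMAD2 and SMAD3. In the jaw the neural crest supplies bone, cartilage, tendon and other connective tissue. Skeletal muscle, the endothelium of vessels, blood cells and the surface epithelium have other origins. Wnt1-Cre is active in the neural crest lineage, so by design those tissues keep the receptor. In the proximal mandible of this stage Meckel's cartilage runs beside forming bone, and the joint region, the chewing muscles and their tendons are being laid down. The arrays read the whole tissue piece, so fewer cells of a type and less RNA per cell cannot be told apart.

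Control arrays carried the labelled position in Barx1 and Hand2, but not in every marker of the mandible. Barx1, a transcription factor of proximal jaw mesenchyme, was at 11.77 ± 0.147 (SD, n = 3) in the proximal and 8.53 ± 0.0387 in the distal mandible. Hand2, a mandibular patterning factor, was at 11.42 ± 0.304 in the proximal mandible, below 13.30 ± 0.140 in the distal mandible and above 7.90 ± 1.13 in the proximal maxilla. Dlx3 (9.14) and Hand1 (6.90) also lay above the control proximal maxilla (8.34 and 6.76). Dlx5 (11.61) and Dlx6 (10.74) lay below it (11.81 and 10.92). Nkx3-2, a gene of the jaw joint, lay below the 40th percentile of its arrays in both genotypes. In the mutants Barx1 was at 12.15, 11.82 and 12.004 and Hand2 at 11.54, 11.02 and 11.31, and neither passed the test (adjusted p = 0.680 and 0.926).

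The pieces were not equal within a genotype. Hoxa2, a gene of the second and more posterior arches, read 9.08, 5.84 and 8.61 in control replicates 1 to 3 and 5.33, 5.52 and 8.04 in mutant replicates 1 to 3. Xist was near 6.2 in replicate 1 of both genotypes (6.23 and 6.15) and between 13.24 and 13.72 in the other arrays. The mean of 3 Y-linked genes was 9.82, 3.79 and 3.72 in controls and 9.99, 8.34 and 8.94 in mutants, so mutant replicates 2 and 3 held both Xist and Y-linked transcripts. The Gapdh control probe sets measure RNA degradation by how far the 3′ signal exceeds the 5′ signal, and this excess was -0.03, -0.07 and -0.04 in controls and 0.25, 0.06 and 0.29 in mutants. Every mutant array lay above every control in that measure, and its part in the results was not tested beyond a fit with it as a covariate, which called 2251 genes.

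Tgfbr2 itself read 12.33, 11.94 and 12.28 in controls and 12.38, 12.37 and 12.40 in mutants with its brightest probe set. The difference was 0.20 ± 0.109 (SE, as for all differences below) and did not pass (adjusted p = 0.341). Its other probe sets gave -0.32 and -0.05, and the mean of all its probe sets gave -0.058. No source used here places these probes relative to the deleted part. The level of Tgfbr2 is therefore no check of genotype. H2az2, which encodes a histone H2A variant, is the gene at which the widely used Wnt1-Cre transgene is inserted, although the labels do not name the line. H2az2 was at 13.64, 13.57 and 13.66 in controls and 12.66, 12.76 and 12.67 in mutants, a fall of 0.92 (SE 0.0641) with the lowest adjusted p of the comparison (2.16e-07). This gene was singled out after its values were seen.

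Among 13850 genes, 742 passed the test (5.36%, limma with Benjamini-Hochberg adjusted p below 0.05), 395 higher (2.85%) and 347 lower (2.51%) in mutants. Most changes were small. The median of the called genes was 0.41 for rises and -0.31 for falls, and the median of all genes was 0.003. At least 2-fold differences were found for 28 of the called rises and 18 of the called falls. In 740 of the 742 genes no mutant array overlapped any control array, which held for 30.0% of all genes tested. When each of the 6 arrays was left out in turn, 112 of the 742 genes (59 higher, 53 lower) passed in every case and 125 passed in none. No called gene changed direction, but without overlap none of the 740 could. The 112 genes that passed in every case are called held below. In 9 of the called rises every control array, and in 14 of the called falls every mutant array, lay below the 40th percentile of its array (about 6.3), where the size of a difference is uncertain. The named genes so placed were the rises Kcnc2, Sost, Trhr and 2900055J20Rik and the falls Atp1b4, Clec4a3, Fabp4 and Tlr1. The number called fell most, to 139, without control replicate 1.

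**Figure D1:**
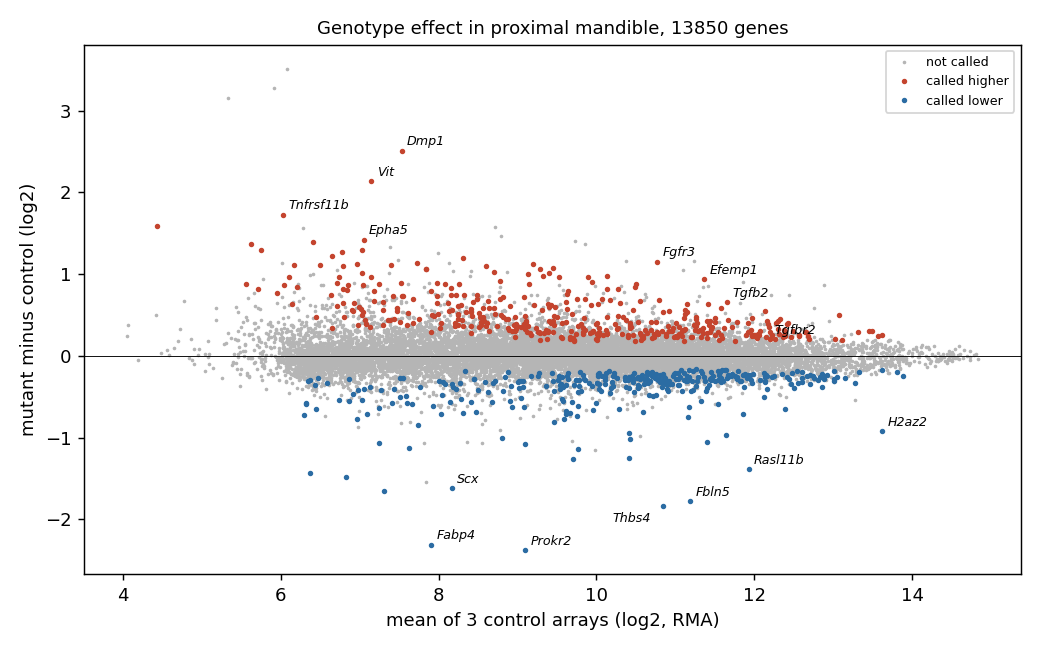
Each point is 1 of 13850 genes, with the mean of the 3 control proximal mandible arrays on the x axis and mutant minus control on the y axis, both in log2 units. The 395 called rises are red and the 347 called falls blue; the 3 grey points at the top left are the Y-linked genes, which did not pass.

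The strongest falls included genes of tendon and of elastic fibres. Scx, which encodes scleraxis, a transcription factor of tendon progenitors, was at 8.02, 8.34 and 8.14 in controls and 6.31, 6.79 and 6.55 in mutants. All mutant arrays lay over 1 log2 unit below all controls, and the level fell to 32.6% of control (-1.62 ± 0.209, adjusted p = 0.000359). In mutant replicate 1 Scx was below the 40th percentile of the array. Thbs4, which encodes thrombospondin 4, a matrix protein of tendon and muscle attachments, was at 10.78, 10.96 and 10.80 in controls and 8.88, 9.18 and 8.98 in mutants. It fell to 28.1% of control (-1.83 ± 0.372, adjusted p = 0.00985).

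Of 18 tendon genes tested, 2 fell (Scx and Thbs4), 1 rose and 15 did not pass, with a median of 0.04 and a mean of -0.09. That is 16.7% called, against 5.36% of all genes. The gene lists were written with earlier results of these data known, so a larger share cannot be read as a result. The riser was Col12a1, a collagen of dense connective tissue (0.46 ± 0.104, adjusted p = 0.0158), whose call was lost without control replicate 1 or 3 or mutant replicate 1 or 2 (adjusted p up to 0.0856). A dimmer probe set of Col12a1, above the 40th percentile, gave 0.11 ± 0.212. Tnmd, tenomodulin of maturing tendon, read 9.14, 10.01 and 9.65 in controls and 8.90, 9.20 and 9.17 in mutants. The groups of Tnmd overlapped (-0.51 ± 0.284, adjusted p = 0.349). Mkx, another transcription factor of tendon, overlapped as well (-0.14 ± 0.171, adjusted p = 0.734). Scx and Thbs4 were held.

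Fbln5 encodes fibulin 5, which is needed to assemble elastic fibres. It was at 11.22, 11.21 and 11.13 in controls and 9.14, 9.42 and 9.65 in mutants, far outside the spread of either group. The level fell to 29.2% of control (-1.78 ± 0.129, adjusted p = 2.41e-07). Mfap4, a microfibril-associated protein, was at 11.64, 11.65 and 11.65 in controls and 10.65, 10.70 and 10.69 in mutants (-0.96 ± 0.161, adjusted p = 0.00331). Both genes were held. Of 17 genes of elastic fibres and microfibrils tested, 4 fell, 2 rose and 11 did not pass (median -0.15). Of this list 35.3% was called, against 5.36% of all genes. The smaller falls were Mfap2 (-0.27, adjusted p = 0.0163) and Emilin1 (-0.38, adjusted p = 0.0492), and Emilin1 lost its call on leaving out any of the 6 arrays. Mfap2 was lost without control replicate 1 or 3 or mutant replicate 1 or 2 (adjusted p up to 0.0896), and Emilin1 reached 0.187.

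Other members of this family rose. Efemp1, which encodes fibulin 3, was at 11.47, 11.27 and 11.34 in controls and 12.24, 12.36 and 12.30 in mutants (0.94 ± 0.181, adjusted p = 0.00731) and was held. Loxl4, a lysyl oxidase that cross-links collagen and elastin, was at 6.51, 7.33 and 7.29 in controls and 8.05, 7.55 and 8.12 in mutants (0.86 ± 0.184, adjusted p = 0.0131). Its call was lost without control replicate 1 or mutant replicate 3 (adjusted p up to 0.0750). A dimmer probe set of Loxl4, above the 40th percentile, gave 0.18 ± 0.133. Eln, elastin itself, read 10.08, 10.20 and 10.17 in controls and 9.84, 9.85 and 9.99 in mutants and did not pass (-0.25 ± 0.165, adjusted p = 0.441).

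Further large falls came from genes outside these families. Prokr2, a receptor for prokineticins, had the largest fall, from 9.03, 9.28 and 8.97 in controls to 6.28, 6.74 and 7.13 in mutants. That is 19.2% of the control level (-2.38 ± 0.327, adjusted p = 0.000712). Rasl11b, a small GTPase of the RAS family, was at 11.862, 11.934 and 11.995 in controls and 10.53, 10.60 and 10.50 in mutants. The arrays of each genotype lay close together, and the fall was to 38.3% of control (-1.39 ± 0.117, adjusted p = 1.92e-06). Meox1, a homeobox gene known from somite-derived tissue, was at 9.45, 9.90 and 9.76 in controls and 8.41, 8.60 and 8.32 in mutants (-1.26 ± 0.193, adjusted p = 0.00196). Atp1b4, a member of the Na,K-ATPase beta subunit family, was at 7.61, 7.07 and 7.24 in controls and 5.57, 5.56 and 5.84 in mutants (-1.65 ± 0.251, adjusted p = 0.00196).

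Prokr2, Rasl11b, Meox1 and Atp1b4 were all held. Fabp4, a fatty acid carrier of fat cells, vessels and macrophages, was at 8.29, 6.98 and 8.45 in controls and 5.01, 5.71 and 6.07 in mutants (-2.31 ± 0.486, adjusted p = 0.0119). Its call was lost without control replicate 1 or 3 (adjusted p up to 0.0687). It was the 1 called member of 15 lipid storage genes (median 0.09). Pamr1, a secreted protein with a protease-like domain, fell by 1.14 (SE 0.322, adjusted p = 0.0457), and its call was lost on leaving out any 1 of the 6 arrays (adjusted p up to 0.162).

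**Figure D2:**
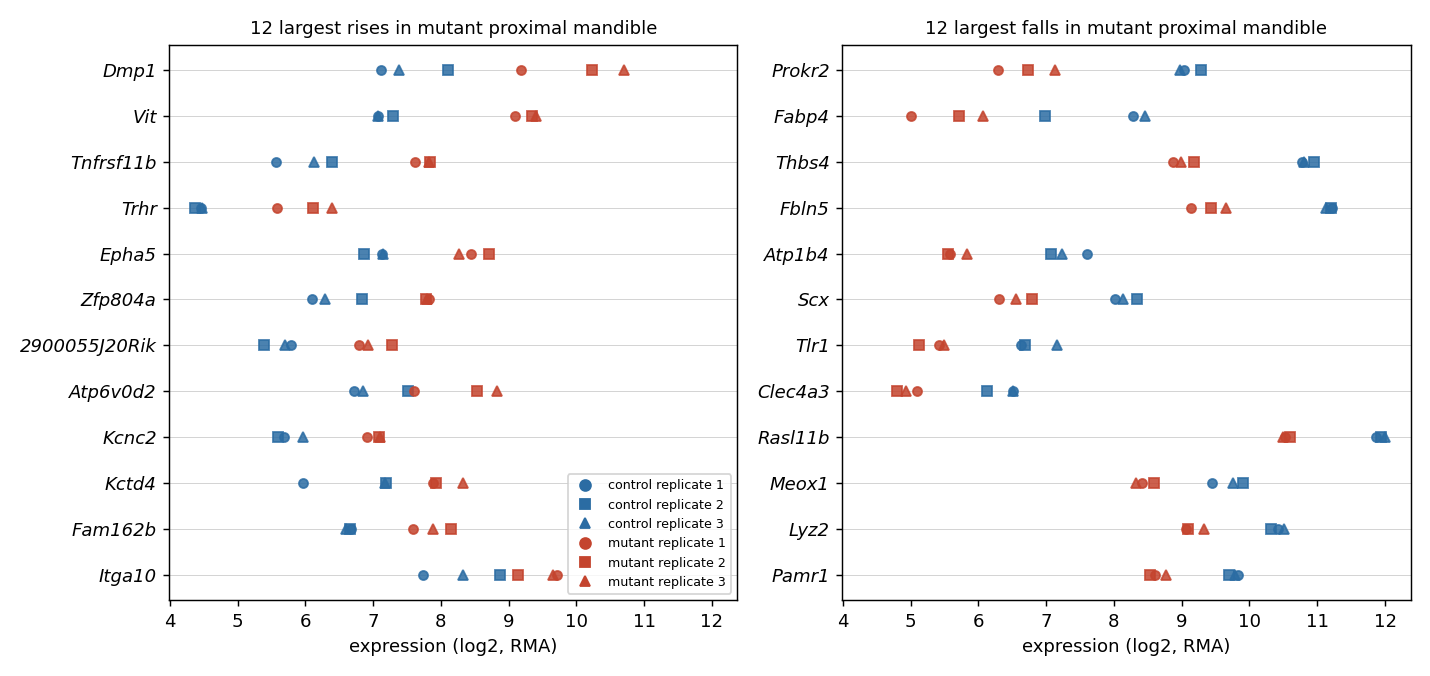
The 12 called genes with the largest rise (left) and the 12 with the largest fall (right), with the log2 expression of each proximal mandible array on the x axis. Blue symbols are controls, red symbols mutants, and the symbol shape gives the replicate; no gene has overlapping groups, as the naming rule required, and the gap is narrow for Atp6v0d2 and Itga10 and wide for Vit, Fbln5 and Rasl11b.

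The promoters of Fbln5, Thbs4 and Rasl11b are shown because they were among the strongest falls of this tissue, and that of Dmp1 because it had the largest rise. The sequences run from 250 bases before to 50 bases after the annotated start, are taken from RefSeq on GRCm38.p6 and are written 5′ to 3′ on the strand of the gene. Capitals mark CAGAC or its reverse complement GTCTG, the short element that SMAD proteins are known to bind. Fbln5 has 2 listed start sites, at chr12:101819070-101819369 and chr12:101818435-101818734, both on the minus strand.
Fbln5 first start site: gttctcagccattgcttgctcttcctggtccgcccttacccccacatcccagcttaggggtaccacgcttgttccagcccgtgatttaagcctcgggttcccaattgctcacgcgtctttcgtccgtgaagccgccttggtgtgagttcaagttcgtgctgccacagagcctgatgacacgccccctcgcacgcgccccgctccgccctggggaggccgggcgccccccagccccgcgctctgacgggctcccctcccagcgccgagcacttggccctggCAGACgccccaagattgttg
Fbln5 second start site: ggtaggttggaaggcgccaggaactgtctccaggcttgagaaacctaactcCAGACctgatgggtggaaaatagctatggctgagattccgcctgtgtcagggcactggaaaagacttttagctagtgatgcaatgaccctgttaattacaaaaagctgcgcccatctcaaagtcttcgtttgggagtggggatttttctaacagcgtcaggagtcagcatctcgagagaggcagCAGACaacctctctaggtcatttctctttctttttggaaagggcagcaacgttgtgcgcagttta
Thbs4 lies at chr13:92794769-92795068 on the minus strand.
Thbs4: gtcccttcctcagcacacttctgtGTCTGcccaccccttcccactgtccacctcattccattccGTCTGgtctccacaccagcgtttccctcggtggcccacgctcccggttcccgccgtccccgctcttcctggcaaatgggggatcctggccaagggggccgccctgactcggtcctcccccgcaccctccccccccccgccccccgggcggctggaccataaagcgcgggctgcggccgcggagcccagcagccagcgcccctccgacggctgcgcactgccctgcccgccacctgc
Rasl11b lies at chr5:74195076-74195375 on the plus strand.
Rasl11b: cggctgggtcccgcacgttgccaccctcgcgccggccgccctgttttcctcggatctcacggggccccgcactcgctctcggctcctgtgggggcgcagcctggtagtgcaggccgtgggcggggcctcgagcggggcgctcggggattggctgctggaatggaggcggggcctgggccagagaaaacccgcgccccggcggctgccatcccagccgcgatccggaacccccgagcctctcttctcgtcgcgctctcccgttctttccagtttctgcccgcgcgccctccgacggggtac
The first start site of Dmp1 lies at chr5:104197325-104197624 on the plus strand.
Dmp1 first start site: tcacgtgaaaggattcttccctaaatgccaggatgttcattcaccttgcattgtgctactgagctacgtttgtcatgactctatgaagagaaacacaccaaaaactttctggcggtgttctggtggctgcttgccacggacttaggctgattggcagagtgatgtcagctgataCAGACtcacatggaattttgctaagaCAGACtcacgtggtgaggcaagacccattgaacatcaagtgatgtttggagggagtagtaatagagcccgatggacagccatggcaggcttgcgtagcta
The element was present in both Fbln5 windows, in 1 and 2 copies, in 2 copies in the Thbs4 window and the Dmp1 window shown, and not in that of Rasl11b. A second Dmp1 start site, at chr5:104202367-104202666 and not shown, held 1 copy. It is short and common, and was found in 49.6% of all 32851 promoters in the table. Among genes with a listed promoter it was present at any start site in 55.2% of the 277 called lower, 49.7% of the 302 called higher and 52.8% of the 11084 tested. The called genes thus lay near the share of all genes in either direction.

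Genes of the TGF-beta pathway itself were called at near the share of all genes. Of 34 ligands, receptors and regulators tested, 2 rose, none fell and 32 did not pass (median 0.10). Their share called was 5.88%, against 5.36% of all genes, whose median was 0.003. The riser with the larger change was Tgfb2, the ligand, at 11.52, 11.88 and 11.57 in controls and 12.24, 12.37 and 12.34 in mutants, so that every mutant array lay above every control (0.66 ± 0.112, adjusted p = 0.00363, held). Itgav, an integrin subunit that activates latent TGF-beta, was at 12.11, 12.32 and 12.15 in controls and 12.46, 12.59 and 12.57 in mutants (0.35 ± 0.0694, adjusted p = 0.00923). Without control replicate 1 Itgav did not pass (adjusted p = 0.0642), and a dimmer probe set of the gene gave -0.02. The other ligands Tgfb1 (0.10 ± 0.217) and Tgfb3 (0.17 ± 0.181) and the type I receptor Tgfbr1 (0.14 ± 0.0948) did not pass. Smad2 (-0.16), Smad3 (0.12) and the inhibitory Smad7 (0.10) did not pass either.

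Of 31 genes known to respond to TGF-beta, 3 fell, 1 rose and 27 did not pass (median 0.02, mean -0.09). Called genes made up 12.9% of them, against 5.36% of all genes. The falls were Fbln5, Scx and Tagln. Tagln, transgelin of contractile cells, was at 10.81, 10.31 and 10.66 in controls and 9.92, 9.90 and 9.89 in mutants (-0.69 ± 0.165, adjusted p = 0.0209). Its call was kept without control replicate 2 and lost in the 5 other leave-one-out fits (adjusted p up to 0.127). Snai2, a repressor of epithelial genes, rose slightly (0.24 ± 0.0597, adjusted p = 0.0237) and was kept without mutant replicate 2 and lost in the 5 other fits (up to 0.118). Postn, periostin of connective tissue, read 13.44, 13.53 and 13.49 in controls and 13.38, 13.53 and 13.51 in mutants (-0.01 ± 0.123). Ccn2, a growth factor of the matrix, overlapped between groups as well (-0.17 ± 0.323).

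The largest rise was in a bone gene. Dmp1, a matrix protein of osteoblasts, osteocytes and odontoblasts, was at 7.11, 8.10 and 7.38 in controls and 9.19, 10.23 and 10.71 in mutants. The mutants varied among themselves, yet the lowest of them lay over 1 log2 unit above the highest control. Dmp1 rose 5.69-fold (2.51 ± 0.321, adjusted p = 0.000347, held). Tnfrsf11b, osteoprotegerin, a secreted decoy that blocks osteoclast formation, was at 5.57, 6.39 and 6.13 in controls and 7.61, 7.84 and 7.82 in mutants. It rose 3.31-fold (1.73 ± 0.332, adjusted p = 0.00734) and narrowly did not pass without control replicate 1 (adjusted p = 0.0568). A dimmer probe set of Tnfrsf11b, below the 40th percentile, gave 0.04 ± 0.113. Sost, sclerostin, an inhibitor of WNT signalling made by osteocytes, was at 5.66, 5.44 and 6.05 in controls and 6.44, 6.54 and 6.61 in mutants (0.81 ± 0.127, adjusted p = 0.00196, held). No control array of any jaw piece read Sost above the 40th percentile of its array, so Sost entered the test through mutant arrays alone and the size of its difference is uncertain.

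Of 16 bone genes tested, 4 rose (Dmp1, Tnfrsf11b, Sost and the osteoblast cadherin Cdh11), none fell and 12 did not pass. The median was 0.60 against 0.003 for all genes, and 14 members had a positive difference. Leaving out Sost, which had to differ to be tested, 3 of 15 rose and the median was 0.52. Cdh11 changed by 0.24 ± 0.0567 (adjusted p = 0.0200) and was lost without control replicate 1 or 2 or mutant replicate 2 or 3 (adjusted p up to 0.0780). Ibsp, bone sialoprotein, read 12.40, 13.29 and 12.98 in controls and 13.78, 13.75 and 13.74 in mutants, without overlap, and did not pass (0.87 ± 0.514, adjusted p = 0.383). Sp7, the transcription factor osterix, read 10.16, 11.09 and 10.56 in controls and 11.55, 11.01 and 11.31 in mutants, where the groups overlapped (0.69 ± 0.249, adjusted p = 0.120). Alpl, the alkaline phosphatase needed for mineral deposition, showed the same order among controls, at 10.18, 11.24 and 10.46, with mutants at 11.36, 11.27 and 11.40 (0.72 ± 0.247, adjusted p = 0.101).

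Cartilage genes were higher in most members but none passed in the fit to all 24 arrays. Of 22 tested, 20 had a positive difference and the median was 0.57. Snorc, a chondrocyte proteoglycan, came nearest, at 7.98, 9.32 and 8.85 in controls and 10.31, 10.13 and 10.45 in mutants (1.58 ± 0.499, adjusted p = 0.0729). Acan, aggrecan, read 9.01, 10.35 and 9.82 in controls and 11.44, 10.75 and 11.19 in mutants (1.40 ± 0.859, adjusted p = 0.404). Col2a1, the main cartilage collagen, read 12.25, 13.16 and 12.86 in controls and 13.58, 13.02 and 13.42 in mutants, so mutant replicate 2 lay below control replicate 2 (0.58 ± 0.777, adjusted p = 0.757). These SEs include the spread of the other pieces. In the distal maxilla mutants Col2a1 read 13.10, 9.13 and 8.93, so its SE is not that of the proximal mandible alone. Chad, chondroadherin, went the other way, from 7.002, 8.19 and 7.74 to 6.84, 6.69 and 6.95 (-0.81 ± 0.375, adjusted p = 0.235).

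The controls themselves differed in skeletal content. As the median over list members of the difference from the control mean, bone stood at -0.36, 0.36 and 0.01 in control replicates 1 to 3 and at 0.56, 0.66 and 0.63 in the mutants. Cartilage stood at -0.51, 0.47 and 0.06 in controls and 0.74, 0.30 and 0.73 in mutants. Skeletal muscle ran the other way among controls, at 0.32, -0.27 and -0.03, with mutants at -0.12, -0.04 and -0.15. Control replicate 1 was thus lowest for bone and cartilage and highest for muscle, and control replicate 2 the reverse. Bone in all 3 mutants lay above all controls, whereas for cartilage mutant replicate 2 lay below control replicate 2. The part of such differences between pieces in the bone and cartilage values was not tested.

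**Figure D3:**
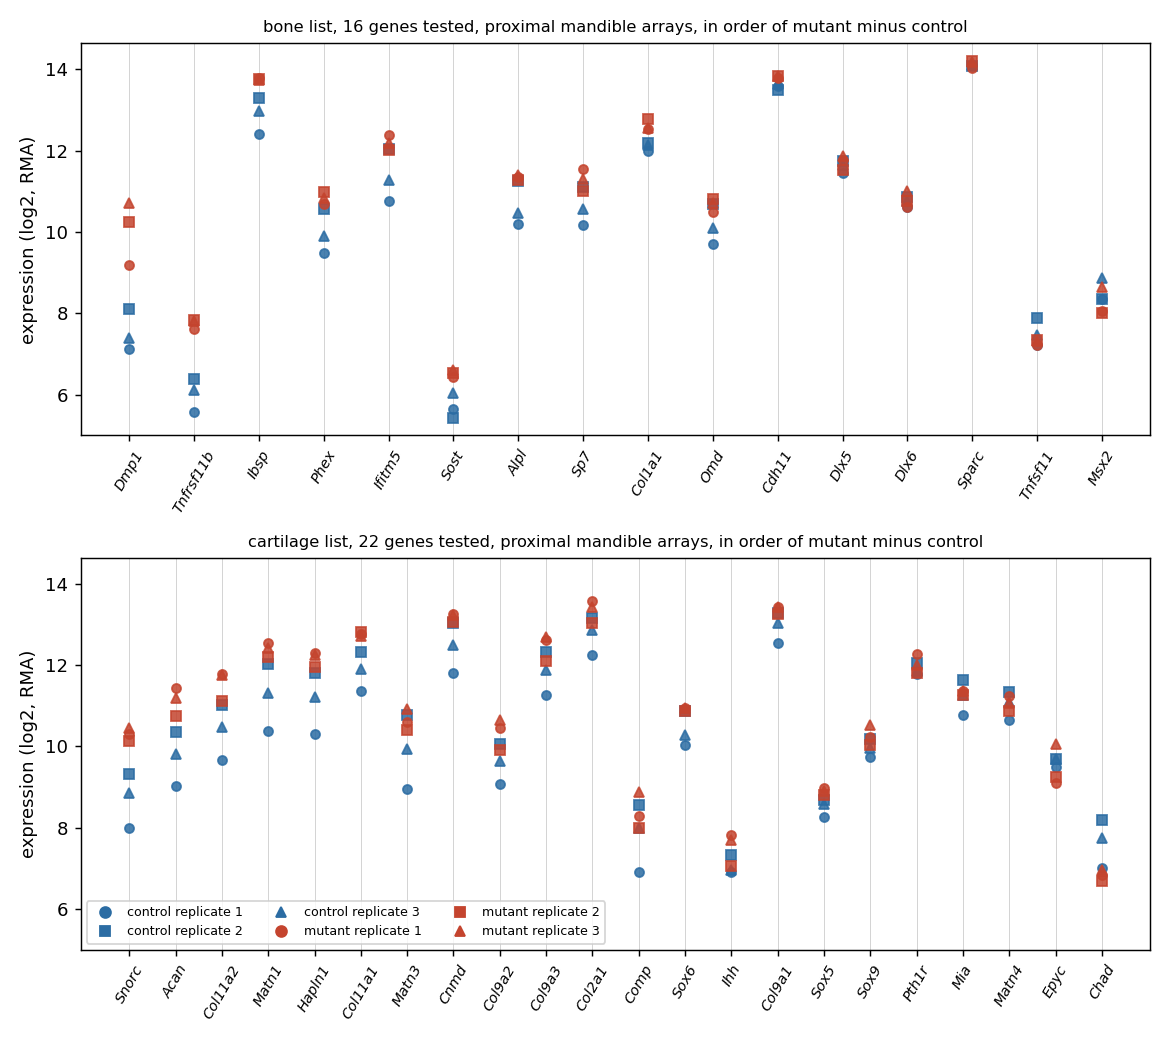
Log2 expression of every tested gene of the bone list (top, 16 genes) and the cartilage list (bottom, 22 genes) in each proximal mandible array, ordered from the highest to the lowest difference. Dmp1 and Tnfrsf11b show wide gaps between the red mutant and blue control symbols, while for most cartilage genes control replicate 2 (blue square) lies near the mutants and control replicate 1 (blue circle) lies lowest.

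Genes that act on or in osteoclasts moved in different directions. Atp6v0d2, a proton pump subunit of osteoclasts needed for cell fusion, was at 6.72, 7.51 and 6.85 in controls and 7.61, 8.54 and 8.82 in mutants (1.30 ± 0.278, adjusted p = 0.0131). Mutant replicate 1 lay close to control replicate 2, and the call was lost without control replicate 1 or 3 or mutant replicate 2 or 3 (adjusted p up to 0.0800). Nfatc1, the transcription factor that drives osteoclast formation and is also active in endocardial and other cells, was at 10.29, 10.50 and 10.49 in controls and 9.34, 9.32 and 9.54 in mutants (-1.02 ± 0.182, adjusted p = 0.00502, held). Its 3 other probe sets above the 40th percentile gave smaller differences, of -0.25, -0.27 and -0.07. These were the 2 called of 8 osteoclast genes tested (median 0.22). Ctsk, the collagen-degrading protease of osteoclasts, did not pass (0.27 ± 0.199, adjusted p = 0.511).

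Among matrix genes outside these groups, Vit, which encodes vitrin, stood out. It was at 7.08, 7.29 and 7.07 in controls and 9.10, 9.35 and 9.40 in mutants, with tight replicates in both groups. It rose 4.39-fold (2.13 ± 0.212, adjusted p = 1.70e-05, held). Matn2, matrilin 2, was at 9.77, 10.01 and 10.05 in controls and 10.70, 11.04 and 10.81 in mutants (0.91 ± 0.220, adjusted p = 0.0222). Ccn3, a secreted regulator of the CCN family, was at 8.26, 7.60 and 8.38 in controls and 8.58, 8.99 and 9.31 in mutants (0.88 ± 0.228, adjusted p = 0.0296). Matn2 was lost without control replicate 1 or 3 or mutant replicate 2 or 3 (adjusted p up to 0.120), and Ccn3 without control replicate 1 or 2 or mutant replicate 2 or 3 (up to 0.155). A dimmer probe set of Matn2, above the 40th percentile, gave 0.42 ± 0.275. Vit, Matn2 and Ccn3 were the 3 called of 38 matrix genes (none lower, 7.89% against 5.36% of all genes, median 0.12).

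Nid1, nidogen of the basement membrane, was at 11.96, 11.84 and 11.97 in controls and 12.30, 12.28 and 12.40 in mutants (0.41 ± 0.0807, adjusted p = 0.00909). A dimmer probe set of Nid1, above the 40th percentile, gave 0.15 ± 0.300. Without mutant replicate 3 Nid1 narrowly did not pass (adjusted p = 0.0508). It was the 1 called of 20 basement membrane genes, 17 of which had a positive difference (median 0.20). Itga10, a collagen-binding integrin of chondrocytes, rose 2.29-fold from 7.74, 8.87 and 8.33 to 9.72, 9.14 and 9.66 (1.19 ± 0.326, adjusted p = 0.0388). Its call was kept without control replicate 2 and lost in the 5 other fits (adjusted p up to 0.222), and its controls followed the order of the cartilage list.

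Other large rises lay outside the lists of bone and matrix. Epha5, an ephrin receptor, was at 7.13, 6.87 and 7.15 in controls and 8.44, 8.71 and 8.26 in mutants (1.42 ± 0.163, adjusted p = 0.000101). Kcnc2, a voltage-gated potassium channel of neurons, was at 5.68, 5.60 and 5.96 in controls and 6.91, 7.09 and 7.10 in mutants (1.29 ± 0.200, adjusted p = 0.00196). No control array of any piece read Kcnc2 above the 40th percentile, so it entered the test through mutant arrays alone. Zfp804a, a zinc finger gene, was at 6.10, 6.84 and 6.30 in controls and 7.83, 7.79 and 7.79 in mutants (1.39 ± 0.260, adjusted p = 0.00629). Epha5, Kcnc2 and Zfp804a were held. None of 18 neuronal genes passed (median 0.05). Nefl, a neurofilament, read 11.81, 11.03 and 11.56 in controls and 11.47, 11.61 and 11.53 in mutants.

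Also held were Fam162b (1.23 ± 0.175, adjusted p = 0.00104) and the unnamed transcript 2900055J20Rik (1.37 ± 0.252, adjusted p = 0.00614). Trhr, the receptor for thyrotropin-releasing hormone, read 4.46, 4.37 and 4.47 in controls and 5.58, 6.11 and 6.39 in mutants, a low signal (1.59 ± 0.446, adjusted p = 0.0437). A dimmer probe set of Trhr, below the 40th percentile, gave -0.24 ± 0.117. No control array of any piece read Trhr above the 40th percentile, so it entered the test through mutant arrays alone. Its call was lost on leaving out any 1 array (adjusted p up to 0.172). Kctd4 rose by 1.27 ± 0.362 (adjusted p = 0.0468), and the call was kept without control replicate 2 and lost in the 5 other fits (up to 0.269).

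Signalling genes outside the TGF-beta list gave a few calls in each direction. Grem1, a secreted BMP antagonist, was at 9.06, 9.15 and 9.10 in controls and 7.80, 8.15 and 8.13 in mutants (-1.08 ± 0.171, adjusted p = 0.00228, held). Chrdl1, another BMP antagonist, moved the opposite way, from 7.59, 7.96 and 7.99 to 8.62, 9.03 and 9.07 (1.06 ± 0.237, adjusted p = 0.0157). It was lost without control replicate 1 or mutant replicate 2 or 3 (adjusted p up to 0.0948). Bmp2, a ligand, was at 10.25, 10.54 and 10.59 in controls and 11.02, 11.02 and 11.03 in mutants (0.56 ± 0.147, adjusted p = 0.0309). Smad5, which transmits BMP signals, fell by 0.18 (SE 0.0502, adjusted p = 0.0450). The calls of Bmp2 and Smad5 were lost on leaving out any 1 array (adjusted p up to 0.180 and 0.206). Of 25 BMP genes tested, these 2 rose, these 2 fell and 21 did not pass (median 0.06).

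Fgfr3, an FGF receptor of chondrocytes and osteoblasts, was at 10.34, 11.13 and 10.85 in controls and 12.16, 11.74 and 11.87 in mutants (1.15 ± 0.325, adjusted p = 0.0452). It and Flrt3, a membrane protein that interacts with FGF receptors (0.30 ± 0.0838, adjusted p = 0.0397), were the 2 called of 19 FGF genes, and none fell (median 0.03). That share of 10.5% compares with 5.36% of all genes. The call of Fgfr3 was kept without control replicate 2 and that of Flrt3 without control replicate 3, and both were lost in every other leave-one-out fit (adjusted p up to 0.227 and 0.208). Epha2, an ephrin receptor, joined Epha5 as the called pair of 18 Eph and ephrin genes (0.42 ± 0.0938, adjusted p = 0.0158), and was lost without control replicate 1 or 3 or mutant replicate 3 (up to 0.0896). The pair is 11.1% of its list, against 5.36% of all genes. None of 37 WNT genes (median -0.03) and none of 16 hedgehog genes (median 0.17) passed. Ptch1, the hedgehog receptor and target, read 11.75, 12.29 and 11.78 in controls and 12.53, 12.44 and 12.38 in mutants (0.51 ± 0.188, adjusted p = 0.132).

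Patterning genes gave 1 call. Cited1, a transcriptional cofactor, was at 8.78, 9.10 and 8.91 in controls and 8.49, 8.12 and 8.29 in mutants (-0.63 ± 0.162, adjusted p = 0.0286). It was kept without mutant replicate 1 and lost in the 5 other fits (adjusted p up to 0.117). It was the 1 called of 17 genes of mandibular identity and endothelin signalling (median 0.09). None of 15 maxillary identity genes (median 0.10), 18 genes of the jaw joint and proximal skeleton (median 0.04) or 18 tooth genes (median 0.07) passed. Dlx5, a homeobox gene of the mandibular list, read 11.46, 11.75 and 11.64 in controls and 11.78, 11.53 and 11.86 in mutants. Of 22 neural crest mesenchyme genes only Snai2 passed (median 0.03), and Pdgfra read 13.03, 12.86 and 12.97 against 12.80, 12.85 and 12.88.

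Genes of cell types that Wnt1-Cre does not target also changed. Lyz2, the lysozyme of macrophages, was at 10.41, 10.32 and 10.51 in controls and 9.06, 9.09 and 9.32 in mutants. It fell to 41.9% of control (-1.26 ± 0.189, adjusted p = 0.00182, held). Lyz1, its neighbour and near copy, was at 11.41, 11.28 and 11.52 in controls and 10.21, 10.18 and 10.65 in mutants (-1.06 ± 0.196, adjusted p = 0.00629, held), and the probes of such similar genes can share signal. Clec4a3, a myeloid lectin, fell from 6.50, 6.12 and 6.51 to 5.09, 4.80 and 4.93 (-1.43 ± 0.178, adjusted p = 0.000273, held). Tlr1, a toll-like receptor, was at 6.63, 6.69 and 7.16 in controls and 5.42, 5.12 and 5.49 in mutants (-1.48 ± 0.342, adjusted p = 0.0181), and was lost without control replicate 1 or 3 or mutant replicate 2 or 3 (up to 0.0736).

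The macrophage list as a whole held 25 tested genes, of which 5 fell, none rose and 20 did not pass (median -0.28). Leaving out Clec4a3 and Tlr1, which no mutant array of any piece read above the 40th percentile, 3 of 23 fell (median -0.27). Of the 4 genes used as macrophage markers, Lyz2 fell and Csf1r, Cx3cr1 and Ptprc did not pass. Csf1r, the receptor macrophages need to survive, read 11.16, 10.92 and 11.25 in controls and 10.94, 11.01 and 11.25 in mutants (-0.04 ± 0.150, adjusted p = 0.923). Cx3cr1, a chemokine receptor, read 8.97, 8.33 and 8.76 against 8.71, 8.94 and 9.06, and Ptprc, the leukocyte antigen CD45, read 8.38, 7.98 and 8.49 against 7.84, 7.96 and 8.10. The list's mean level, with Clec4a3 and Tlr1 included, was 9.28, 8.95 and 9.30 in controls and 8.73, 8.76 and 8.92 in mutants, without overlap. The median over members of the difference from the control mean did overlap. It was 0.12, -0.23 and 0.12 in controls and -0.34, -0.32 and -0.16 in mutants.

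In vessels, 3 of 21 endothelial genes fell and none rose (14.3% called against 5.36% of all genes, median -0.02). Erg, an endothelial transcription factor, was at 9.56, 9.79 and 9.65 in controls and 8.95, 9.04 and 8.92 in mutants (-0.70 ± 0.154, adjusted p = 0.0145). Cldn5, a tight junction protein, was at 10.31, 10.18 and 10.37 in controls and 9.57, 9.64 and 9.70 in mutants (-0.65 ± 0.133, adjusted p = 0.0106). Esam, an adhesion molecule, fell by 0.29 (SE 0.0749, adjusted p = 0.0300). Erg did not pass without mutant replicate 3 (0.0598), Cldn5 without control replicate 1 (0.0549), and Esam passed only without control replicate 2 (others up to 0.139). Cdh5, VE-cadherin, read 10.61, 10.32 and 10.62 in controls and 10.76, 10.69 and 10.81 in mutants and did not pass (0.24 ± 0.107, adjusted p = 0.222).

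Of 11 genes of pericytes and smooth muscle, Tagln fell and 10 did not pass (median 0.10), among them Acta2 (-0.09 ± 0.212). In the epithelium 1 of 23 genes fell, the cadherin gene Cdh3 (-0.57 ± 0.148, adjusted p = 0.0308; median of the list -0.12). It was lost without control replicate 1 or 3 or mutant replicate 2 or 3 (up to 0.156). None of 34 skeletal muscle genes (median -0.09), 10 Schwann cell genes (median 0.13), 9 red blood cell genes (median -0.08), 12 interferon response genes (median -0.10) or 5 Hox genes (median -0.34) passed. Actc1, an actin of embryonic muscle, read 14.08, 13.62 and 13.92 in controls and 13.83, 13.85 and 13.84 in mutants.

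Metabolic and growth genes shifted by small amounts. Of 33 genes of hypoxia and glycolysis, 4 rose, none fell, 31 had a positive difference and 20 had no overlap between genotypes (median 0.25; 15.4% of all genes were higher without overlap). In this list 12.1% passed, against 5.36% of all genes. Egln3, an oxygen-sensing hydroxylase, was at 8.62, 8.63 and 8.85 in controls and 9.14, 9.37 and 9.34 in mutants (0.58 ± 0.126, adjusted p = 0.0133). Pdk1, which diverts pyruvate from mitochondria, changed by 0.56 ± 0.148 (adjusted p = 0.0333), the glycolytic regulator Pfkfb3 by 0.50 ± 0.120 (0.0218) and the vessel growth factor Vegfa by 0.40 ± 0.0902 (0.0158). A dimmer probe set of Vegfa gave -0.08. For Pdk1, dimmer probe sets above the 40th percentile gave 0.23 ± 0.129 and 0.16 ± 0.121, and another below it gave 0.74 ± 0.143. None of these 4 was held, and their highest adjusted p with an array left out was 0.0739, 0.154, 0.129 and 0.0721. All 4 were lost without control replicate 1 and all 4 without mutant replicate 3. Of the other single-array fits, Egln3 was lost without mutant replicate 2, Pdk1 without control replicate 2 or mutant replicate 2, Pfkfb3 without control replicate 2, and Vegfa without control replicate 3 or mutant replicate 1.

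Cell cycle genes went the other way. Of 38 tested, 5 fell and none rose (13.2% called against 5.36% of all genes, median -0.10). Aurkb, a mitotic kinase, was at 10.52, 10.49 and 10.56 in controls and 10.29, 10.05 and 10.17 in mutants (-0.36 ± 0.0683, adjusted p = 0.00731, held). The other probe set of Aurkb gave a smaller difference, of -0.13 ± 0.0746. Birc5, survivin, fell by 0.32 (adjusted p = 0.0216), the cyclin Ccnb2 by 0.29 (0.0346), Cdca3 by 0.25 (0.0227) and the replication clamp Pcna by 0.20 (0.0339). Birc5 was lost without control replicate 1 or 2 or mutant replicate 2 or 3. Ccnb2 and Cdca3 were kept without control replicate 2 alone, and Pcna without mutant replicate 1 alone (adjusted p up to 0.0860, 0.129, 0.0950 and 0.158). Mki67, a proliferation marker, read 12.63, 12.61 and 12.52 in controls and 12.61, 12.49 and 12.56 in mutants (-0.03 ± 0.0573). Of 16 p53 targets Ccng1 rose (0.36 ± 0.0849, adjusted p = 0.0202; list median 0.13); it was kept without mutant replicate 1 alone (up to 0.0998), and a dimmer probe set gave -0.06.

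The clock genes Per2 (0.38 ± 0.106, adjusted p = 0.0408), Per1 (0.38 ± 0.106, 0.0442) and Dbp (0.37 ± 0.0842, 0.0158) were the 3 called of 14 tested (median 0.12), and none fell. They are 21.4% of the list, against 5.36% of all genes. The other probe sets of Per2 gave -0.22 and -0.0076. A dimmer probe set of Dbp gave 0.16 ± 0.118. Per1 and Per2 were lost on leaving out any 1 array and Dbp without control replicate 1 or 3 or mutant replicate 3 (adjusted p up to 0.165, 0.146 and 0.0910). Ier2, an immediate early gene, was at 11.23, 11.13 and 11.24 in controls and 10.79, 10.79 and 10.76 in mutants (-0.43 ± 0.0720, adjusted p = 0.00363, held), the 1 called of 22 early response and heat shock genes (median 0.11). Pmvk, an enzyme of the mevalonate pathway, was the 1 called of 20 cholesterol synthesis genes (-0.21 ± 0.0576, adjusted p = 0.0434; list median 0.01), and its call was lost on leaving out any 1 array (up to 0.198). Over all 37 lists, 57 of 655 tested members passed, 29 higher and 28 lower, which is 8.7% against 5.36% of all genes. The lists were written with earlier results of these data known, so the larger share cannot be read as a result.

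**Figure D4:**
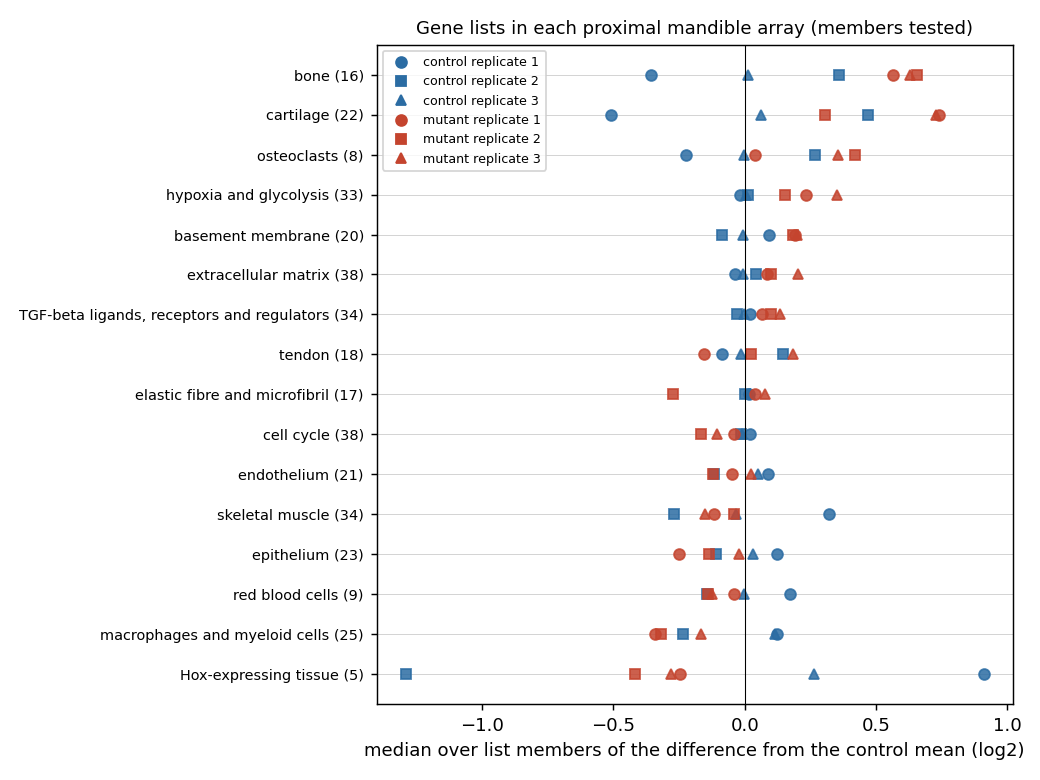
Median over list members of the log2 difference from the mean of the 3 controls, for 16 gene lists (number of genes tested in brackets) in each proximal mandible array. The 3 mutants (red) lie above all controls (blue) for bone, hypoxia and glycolysis, basement membrane, extracellular matrix and the TGF-beta list. They lie below all controls for cell cycle. For macrophages control replicate 2 lies among the mutants, and for cartilage, muscle and Hox genes the controls are spread as widely as the groups are apart.

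The same contrast in the other pieces of the jaw gave 124 called genes in the distal mandible (0.895%), 789 in the proximal maxilla (5.7%) and 980 in the distal maxilla (7.08%). Of the 742 proximal mandible calls, 73 were called in the same direction in the distal mandible (9.84% of the 742 and 58.9% of the 124). The proximal maxilla shared 335 (45.1% and 42.5%) and the distal maxilla 374 (50.4% and 38.2%). Arrays that share genotype and number across the 4 pieces, here called a set, deviated together (correlation 0.40), so these shared counts do not come from independent samples. A fit with the set as a random block called 613 genes in the proximal mandible, of which 558 were among the 742.

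**Figure D5:**
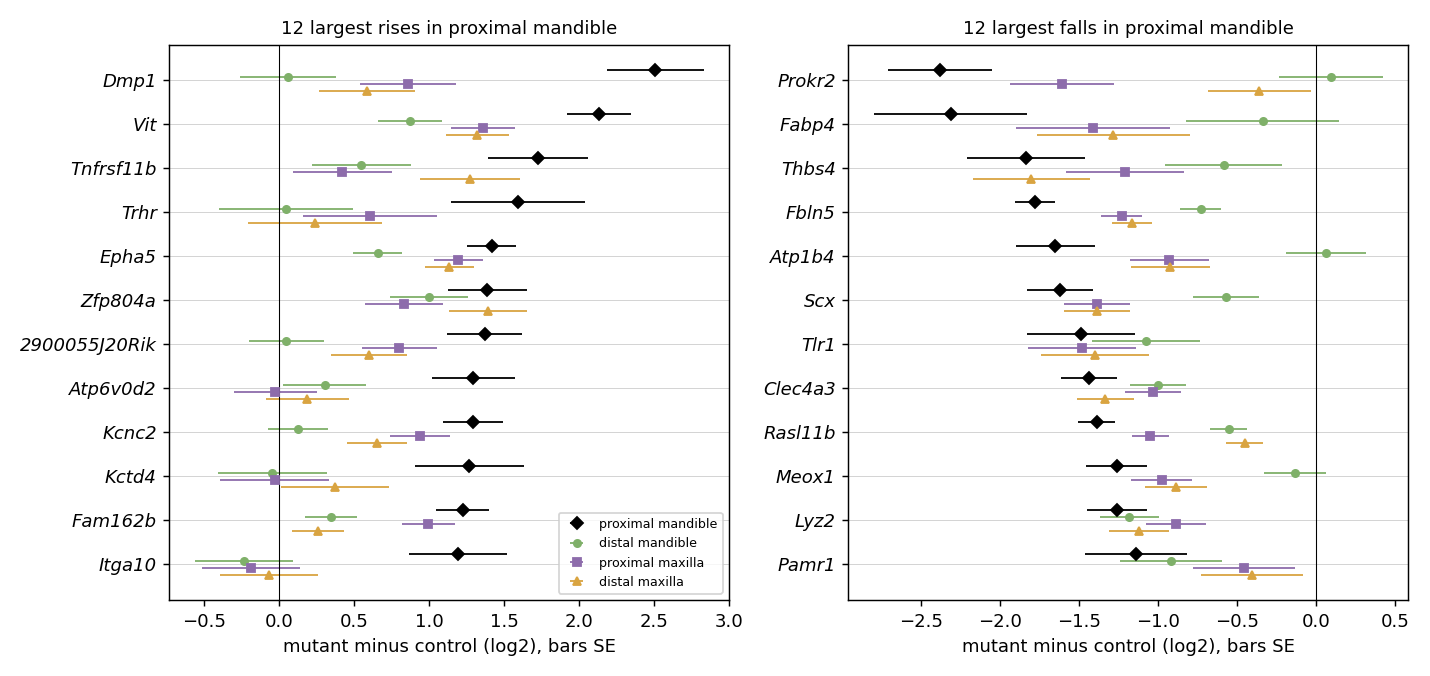
Mutant minus control in log2 units, with SE, in the proximal mandible (black), distal mandible (green), proximal maxilla (purple) and distal maxilla (orange), for the 12 largest proximal mandible rises (left) and falls (right). Genes were chosen on the black values, which the choice places outermost. The distal mandible values of Dmp1, Prokr2 and Atp1b4 lie near 0, while those of Tlr1, Clec4a3 and Lyz2 lie close to the other regions. In the distal mandible Dmp1, Atp1b4 and Clec4a3 were below the 40th percentile in both genotypes, and Tlr1 in every mutant array. The sizes of these 4 differences there are uncertain.

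Whether the genotype effect of the proximal mandible differed from that of another piece was tested directly. No gene passed for proximal minus distal mandible, proximal mandible minus proximal maxilla, or proximal mandible minus the mean of the other 3 pieces, by limma with arrays as replicates. At an unadjusted p below 0.05 there were 552, 596 and 547 genes (3.99%, 4.3% and 3.95%). With sets as a random block, named below as sets blocked, these tests called 7, 6 and 2 genes. The genes with the smallest p are given as values.

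Dmp1 changed by 2.51 in the proximal mandible against 0.06 in the distal mandible, where all arrays of both genotypes were below the 40th percentile, 0.59 in the distal maxilla and 0.86 in the proximal maxilla. Its proximal minus distal mandible difference was 2.45 ± 0.454 (adjusted p = 0.136, and 0.0267 with sets blocked). Against the mean of the other pieces it was 2.01 ± 0.371 (adjusted p = 0.169, and 0.0256 with sets blocked). Prokr2 changed by -2.38 in the proximal and 0.10 in the distal mandible (difference -2.48 ± 0.463, adjusted p = 0.136, and 0.0423 with sets blocked), but by -1.61 in the proximal maxilla. Grem1 changed by -1.08 against 0.26 in the distal mandible (difference -1.34 ± 0.241, adjusted p = 0.136, and 0.0267 with sets blocked). Fbln5 fell in every piece, by 1.78 here and by 0.73 in the distal mandible (difference -1.05 ± 0.183, adjusted p = 0.136, and 0.0366 with sets blocked). Without mutant replicate 1 Dmp1 passed for the distal mandible and for the mean of the other pieces (adjusted p = 0.0122 and 0.0109), and without control replicate 2 for the mean alone (0.0335).

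Lpar3, a lysophosphatidic acid receptor, was at 6.69, 7.27 and 7.15 in controls and 8.17, 7.86 and 8.13 in mutants (1.02 ± 0.180, adjusted p = 0.00482, held). Its difference from the distal mandible effect was 1.33 ± 0.255 (adjusted p = 0.147, and 0.0488 with sets blocked). Slc13a5, a citrate transporter that bone cells use, was at 8.71, 9.70 and 9.18 in controls and 10.48, 10.09 and 10.41 in mutants, and changed by 1.13 ± 0.214 here, against -0.06 in the distal mandible, -0.04 in the distal maxilla and -0.33 in the proximal maxilla. Its difference from the mean of the others was 1.27 ± 0.247 (adjusted p = 0.169, and 0.0274 without control replicate 2), and its call here was lost without control replicate 1 (0.0514). St3gal1, a sialyltransferase, was at 7.37, 7.44 and 7.28 in controls and 7.83, 7.55 and 8.01 in mutants. It changed by 0.43 here (adjusted p = 0.0132, lost without control replicate 1 or 3 or mutant replicate 3, up to 0.0780) and between -0.16 and -0.10 elsewhere (difference 0.56 ± 0.108, adjusted p = 0.169, and 0.0256 with sets blocked). Without mutant replicate 2 the difference of St3gal1 passed (adjusted p = 0.0219), as it did without control replicate 2 (0.0499).

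Against the proximal maxilla the 3 smallest p-values in each direction were those of Slc13a5, Sp7 and St3gal1 and of Apoc1, Ccnb3 and Mt2. Their adjusted p was 0.305 for Apoc1 and 0.328 for the others. With sets blocked Apoc1, Ccnb3 and St3gal1 passed (0.0484 each). Without control replicate 2 the differences of Apoc1 (0.0256), Mt2 (0.0332), Slc13a5 (0.0332) and Sp7 (0.0369) passed. Sp7 changed by 0.69 here and -0.86 in the proximal maxilla, a difference of 1.55 ± 0.352. For Apoc1, an apolipoprotein, the values were -0.44 and 0.55, for the metallothionein Mt2 -0.26 and 0.94, and for the cyclin Ccnb3 0.19 and 2.00. Kcna5, a potassium channel, fell by 1.01 here (adjusted p = 0.00770, held) and changed by -0.10, 0.36 and 0.12 in distal mandible, distal maxilla and proximal maxilla (difference from their mean -1.13 ± 0.225, adjusted p = 0.170, and 0.0464 without control replicate 2). Adgrd1, an adhesion receptor, rose by 1.14 ± 0.213 (adjusted p = 0.00629, held) with values between -0.17 and 0.02 elsewhere (difference 1.22 ± 0.246, adjusted p = 0.170, and 0.0335 without control replicate 2). Rasl11b, by contrast, fell here by 1.39 and by 0.45 to 1.05 elsewhere (difference -0.70 ± 0.135, adjusted p = 0.169).

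The skeletal lists varied between pieces. The median of the bone list was 0.60 here, -0.02 in the distal mandible, -0.33 in the proximal maxilla and 0.07 in the distal maxilla. That of the cartilage list was 0.57 here, -0.15, -0.29 and 0.82 in the same order. The distal maxilla value rests on mutant replicate 1, whose cartilage median lay 2.62 above the control mean against -0.10 and -0.08 in mutant replicates 2 and 3. Without that array it was -0.13, a setting added after seeing the data. The hypoxia and glycolysis list had medians between 0.15 and 0.25 in all 4 pieces, and the macrophage list medians of -0.28 here, -0.20 in the distal mandible, 0.09 in the proximal maxilla and -0.34 in the distal maxilla. These list differences between pieces were not tested.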

How the data were processed

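RNA from dissected jaw pieces was hybridised to Affymetrix mouse arrays. The deposited values are log2 expression per probe set, for which the submitters' processing notes name RMA; no source used here gives its version or which arrays it normalized together. The number of arrays limits the precision. Of 45101 probe sets, 34958 name 1 gene symbol, 932 several (not used) and 9211 none. RefSeq (GRCm38.p6) matched 34754 and changed no symbol. Each of 18194 genes was represented by its brightest probe set, and 13850 lay above the 40th percentile of their array on at least 3 arrays.

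limma 3.58.1 (R 4.3.3) was fitted to all 24 arrays, 8 groups of 3 with 16 residual degrees of freedom, and p-values were adjusted by Benjamini-Hochberg over all 13850 genes. The fit was also run on simulated arrays whose noise was independent between arrays, unlike that of the sets. There it recovered 48% of changes of 0.5 and 96% of changes of 1. Such arrays cannot check the effect of deviations shared within sets. Alternatives are named in the closing section. Leave-one-out fits without an array assume that the arrays left vary like the other groups.

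Members and lists were chosen with earlier results of these data known. Named by rule were Tgfbr2, the 12 largest rises and falls among called genes without overlap, up to 4 called members per list (where under 2 passed, up to 3 of the highest in controls), and the smallest p of each difference of effects. Other list members are given as values and were chosen after their values were seen. The series as a whole holds further samples. These were used only for the filter, the choice of probe set, the shared variance and the comparison between pieces.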

Additional observations from a re-analysis of the deposited data

How the results depend on the processing

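The 742 calls became 283 with the 6 proximal mandible arrays alone (189 shared), 425 with the mean of all probe sets of a gene (175 higher, 250 lower, so 41.2% higher against 53.2%), and 2251 with the Gapdh difference as a covariate (1037 higher, 1214 lower). They became 28 without mutant replicates 1 and 3, the arrays with the highest Gapdh difference, with 26 shared. Leaving out 1 array gave 139 to 556 (without control replicate 1, 139; mutant replicate 3, 201; mutant replicate 2, 289; control replicate 3, 341; mutant replicate 1, 470; control replicate 2, 556). No filter (594), a filter on these 6 arrays (769), another quantile normalization (782), an intensity trend (837) and sets as a random block (613) stayed within 1.5 times. The replicate numbers were not taken as pairs. Same-numbered control and mutant arrays correlated at 0.12, 0.049 and 0.32 in their deviations. Arrays of unlike number correlated between -0.29 and 0.061, the highest being control replicate 2 with mutant replicate 1. Whether the numbers mark pairs was not tested. With the replicate number as a block, 1120 genes were called, and 106 with that block and the 6 arrays alone. The differences of effects (0 called) gave 7, 6 and 2 with sets as a random block, against distal mandible, proximal maxilla and the mean of the others. Leaving out 1 array gave 0 to 1, 0 to 26 and 0 to 26, the 26 being without control replicate 2, and no filter gave 1 for the mean of the others. The 57 list members called became 37 with the 6 arrays alone, 22 with the block added to that, 101 with the Gapdh covariate, 6 without mutant replicates 1 and 3, and 19 to 50 with 1 array left out. No called named gene changed direction under any of the 17 settings. In the fits that only leave out arrays, a gene without overlap could not do so. Why these counts move was not tested. Of the 72 named genes called, 28 were lost with the 6 arrays alone, 23 with the mean of all probe sets, 11 with the random block and 62 without mutant replicates 1 and 3.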

Other observations

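The filter on low values removed Mmp13, a collagenase of hypertrophic chondrocytes and osteoblasts. It read 3.67, 4.12 and 3.61 in controls and 5.32, 7.07 and 6.89 in mutants, so all mutants lay above all controls, but it passed the 40th percentile on only 2 of the 24 arrays. Its controls are near the lowest values of the arrays, so the size of its difference cannot be read from these values. It is the 1 gene that passed the difference from the mean of the other pieces with no filter, which the same limit touches. The genes of this section were chosen after their values were seen.

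Several held genes stand outside the lists. Ldlrad4, a membrane protein that restrains TGF-beta signalling, was at 7.65, 7.50 and 7.67 in controls and 6.91, 7.08 and 7.09 in mutants (-0.58 ± 0.0861, adjusted p = 0.00168). Gimap4, a GTPase of lymphocytes and vessels, fell by 0.77 (SE 0.0796, adjusted p = 2.15e-05), the endothelial receptor Gpr182 by 0.71 (SE 0.0891, adjusted p = 0.000275) and Lmo2, a blood and vessel cofactor, by 0.61 (SE 0.114, adjusted p = 0.00628). Among rises, Pdk4, which limits pyruvate oxidation, was at 6.92, 7.17 and 7.34 in controls and 7.92, 8.07 and 8.33 in mutants (0.96 ± 0.177, adjusted p = 0.00594). Pcolce, an enhancer of procollagen processing, rose by 0.54 ± 0.0927 (adjusted p = 0.00363), the transcription factor Zbtb16 by 0.67 ± 0.126 (adjusted p = 0.00629) and the cofactor Cited2 by 0.42 ± 0.0766 (adjusted p = 0.00614). Called genes were spread over the chromosomes, from 3.54% of tested genes on chromosome 7 to 6.61% on chromosome 2.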
